A study of Mus musculus with 36 samples.

Results

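Genes for structural proteins of the heart's extracellular matrix were followed in mouse hearts with and without Klf15 over a day. The genes were taken by symbol from the genotypes' FPKM tables and are 10 of the 23352 gene entries there: the fibrillar collagen chains Col1a1, Col1a2, Col3a1, Col5a1 and Col5a2, the basement membrane collagen chains Col4a1 and Col4a2, and the genes of fibronectin (Fn1), SPARC (Sparc) and periostin (Postn). All 10 had a mean above the filter of 1 FPKM (fragments scaled to gene length and library total) and were tested. The cK15 mice, labelled KLF15 KO, lacked KLF15 (Kruppel-like factor), a transcription factor with zinc fingers. The control mice carried the α-MHC cre transgene, whose promoter is active in heart muscle cells and not in the fibroblasts that make most of the matrix; whether cK15 mice carried it too is not stated in the labels. Both were C57BL/6 males 11 to 12 weeks old, housed with 12 h of light and 12 h of darkness. The heart apex was taken every 4 h, with 12 am (read as midnight), 4 am and 8 am followed by 12 pm (noon), 4 pm and 8 pm. Each genotype and time had 3 libraries, so there were 18 per genotype and 36 in all, and nothing says that they came from separate animals, so that p-values measure the spread between libraries, which may be technical.

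Type I and type III collagens form the fibrils that carry tension between heart muscle cells, and type V collagen is built into the same fibrils and limits their width. Type IV collagen is the network-forming collagen of the basement membrane around muscle cells and capillaries. Fibronectin binds cells and collagen, SPARC binds collagen on its way into fibrils, and periostin, a matricellular protein of fibroblasts and valves, aids collagen cross-linking. In the adult heart fibroblasts make most fibrillar collagen, while endothelial cells and pericytes also make type IV chains.

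Klf15 was listed at 0 in 13 of 18 cK15 libraries and reached 0.326 FPKM at most, against 0.406 to 2.91 FPKM in control libraries. In 12 libraries, 6 of each genotype, the 10 most abundant genes took under 20% of the summed FPKM, and results that rest on them are given with and without them as the 24 other libraries. The files hold FPKM, so the depth is unknown. Heart muscle markers (8 genes) summed to 59564 to 121737 FPKM in cK15 libraries and 60888 to 109748 FPKM in control libraries. Over both genotypes the sums were 59564 to 70231 FPKM in the 12 libraries and 88240 to 121737 FPKM in the 24 others, without overlap. Fibroblast markers (10 genes, of which Tcf21 was listed at 0 in 3 libraries) summed to 1247 to 1627 FPKM in cK15 libraries and 1444 to 1848 FPKM in control libraries. The lymphocyte markers all lay under the filter.

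Averaged over the 6 times, Col1a1, Col3a1 and Col5a2 fell in cK15 hearts, no member rose, and all 10 differences lay below 0. Across all 10599 genes tested, 11.2% were called in either direction, 7.18% lower and 4.06% higher in cK15, and 54.2% of the differences lay below 0. The median log2 fold change was -0.23 over the 10 matrix genes and -0.012 over all genes, on the log2(FPKM + 1) scale. In bulk heart RNA, fewer cells of a type and less RNA per cell cannot be told apart. The fibroblast markers moved in the same direction: 5 of 9 tested fell and none rose. A random block of genotype and replicate number, whose correlation is estimated over all genes, kept 3 of these calls. It groups libraries with the same number within a genotype and does not pair cK15 with control libraries. The summed level of the fibroblast markers averaged 1412 ± 106 FPKM in cK15 and 1623 ± 105 FPKM in control hearts (SD, n = 18 each). Most of this sum came from Gsn (797 FPKM in cK15 and 909 in control) and Dcn (474 and 549 FPKM). The part of the fibroblast markers in the collagen result was not tested.

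The genes lie on 6 chromosomes (GRCm38, GENCODE annotation). Col3a1 (chromosome 1, 45311538 to 45349706, plus strand) and Col5a2 (chromosome 1, 45374321 to 45503282, minus strand) stand tail to tail, with 24614 bases between their ends. Fn1 is on the same chromosome at 71585520 to 71653200. Col4a1 (chromosome 8, 11198423 to 11312826, minus strand) and Col4a2 (chromosome 8, 11312805 to 11449287, plus strand) start head to head, and their first bases overlap by 22. Col1a1 (chromosome 11, 94936224 to 94953042) and Col1a2 (chromosome 6, 4504814 to 4541544) encode chains of the same trimer from separate chromosomes. Col5a1 is on chromosome 2 at 27886425 to 28039514, Postn on chromosome 3 at 54361109 to 54391037 and Sparc on chromosome 11 at 55394500 to 55423183. The library kit keeps strand, but whether the counting used it is not stated. Fn1, Col5a1, Col4a1 and Col4a2 overlap genes of the opposite strand, of which Apol7d, opposite Fn1, was listed at 0.372 FPKM at most; the others were not analysed here.

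RefSeq promoter entries (GRCm38.p6) were matched for 7 of the 10 genes, with 8 entries because Postn has a pair; promoters of Col1a1, Col5a2 and Fn1 were not analysed here. The 250 bases before the start are shown for Col3a1, the gene with the smallest adjusted p, for Col5a1, whose chain enters the same fibrils, and for the downstream entry of Postn, because their base make-up differs. Capitals mark motif matches, searched on both strands. CACCC is the box that Kruppel-like factors are known to bind, and it reads GGGTG on the minus strand. GGGCGG is the GC box, which reads as CCGCCC on the minus strand. The clock's E-box, CACGTG, was searched too. TATAAA is the letter sequence of the TATA box, and a match was counted at any position in the 250 bases, so it need not be a working TATA box.
Col3a1, chr1:45311288-45311537, plus strand: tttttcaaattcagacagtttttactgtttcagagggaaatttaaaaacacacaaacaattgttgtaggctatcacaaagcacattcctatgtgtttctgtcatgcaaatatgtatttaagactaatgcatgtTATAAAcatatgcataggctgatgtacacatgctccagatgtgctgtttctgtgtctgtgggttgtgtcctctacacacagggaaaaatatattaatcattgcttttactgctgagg
Col5a1, chr2:27886175-27886424, plus strand: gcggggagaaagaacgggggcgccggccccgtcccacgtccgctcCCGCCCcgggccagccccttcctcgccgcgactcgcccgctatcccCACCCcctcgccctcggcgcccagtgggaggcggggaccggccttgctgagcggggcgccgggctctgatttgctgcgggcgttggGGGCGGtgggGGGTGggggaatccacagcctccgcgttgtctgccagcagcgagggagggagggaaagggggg
Postn, chr3:54360857-54361106, plus strand: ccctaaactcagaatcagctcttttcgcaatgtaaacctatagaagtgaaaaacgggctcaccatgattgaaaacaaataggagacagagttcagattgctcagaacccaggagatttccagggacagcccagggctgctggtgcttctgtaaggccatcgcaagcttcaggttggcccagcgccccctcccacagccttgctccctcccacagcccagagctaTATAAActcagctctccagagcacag
The Col3a1 stretch held TATAAA 117 bases before the start and neither CACCC nor GGGCGG, with 35.2% G and C. The Col5a1 stretch held CACCC at 159 and its reverse at 63 bases, GGGCGG at 73 and its reverse at 205 bases, with 76.4% G and C. The Postn stretch held TATAAA 26 bases before the start, with 52.0% G and C, close to the median of 52.4% over all promoters. CACCC was in 5 of the 8 entries and in 52.0% of all 32851 promoters of the same length, GGGCGG in 3 of 8 and 32.7%, TATAAA in 2 of 8 and 12.4%, and CACGTG in 0 of 8 and 6.02%. These matches describe letters in a window and no binding was measured.

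Col3a1, the chain of the type III homotrimer, had 66.4 FPKM in the lowest cK15 library, a median of 103 and 163 in the highest, against 86.1, 158 and 217 FPKM in control libraries. The ranges overlap because both genotypes move over the day; at a given time they overlapped only at 4 am. It averaged 108 ± 30.8 FPKM in cK15 and 153 ± 48.6 FPKM in control hearts (SD, n = 18 each). On the log2 scale cK15 minus control averaged -0.48 (SE 0.052; limma adjusted p = 5.66e-08), and -0.50 over the 24 libraries (SE 0.060; adjusted p = 1.44e-05).

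Type I collagen is the most abundant fibrillar collagen protein of the heart. Its α1 chain gene, Col1a1, had 4.27, 6.63 and 19.4 FPKM as lowest, median and highest in cK15 libraries, against 5.86, 8.80 and 21.1 FPKM in control libraries. The cK15 maximum was a single library of 8 am, and the next cK15 value was 8.47 FPKM. Its averaged log2 difference was -0.50 (SE 0.12; limma adjusted p = 0.00475), and -0.64 over the 24 libraries (adjusted p = 0.000399). With the random block of genotype and replicate number the limma adjusted p was 0.177 for Col1a1, so that its call was lost. Col1a2, the α2 chain gene, had 27.4, 35.6 and 61.6 FPKM in cK15 libraries and 31.0, 44.0 and 60.4 FPKM in control libraries. Its log2 fold change of -0.27 (SE 0.091) missed the threshold (limma adjusted p = 0.0579), passed it with a fixed replicate block (adjusted p = 0.00867) and passed over the 24 libraries (-0.31; adjusted p = 0.0191). With the fixed block any averaged difference rests on replicates 3 and 4, because number 1 occurs only in cK15 and number 2 only in control. With a random replicate block the limma adjusted p of Col1a2 was 0.373, and without cK15 replicate 3 at all times its difference was -0.13 (adjusted p = 0.436).

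Type V chains are built into the fibrils and set their width. Col5a2 had 14.4, 16.7 and 23.9 FPKM as lowest, median and highest in cK15 libraries, against 15.1, 22.6 and 31.5 FPKM in control libraries. Its averaged log2 difference was -0.31 (SE 0.060; limma adjusted p = 0.000439). Col5a1 had 5.79, 7.23 and 13.2 FPKM in cK15 libraries and 5.84, 8.69 and 13.3 FPKM in control libraries, and its log2 fold change of -0.18 (SE 0.062) had a limma adjusted p of 0.0550, or 0.0434 over the 24 libraries, 0.116 with a fixed and 0.492 with a random replicate block. The 5 fibrillar chains together summed to 178 ± 41.0 FPKM in cK15 and 239.9 ± 64.3 FPKM in control hearts (SD, n = 18 each).

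The basement membrane chains differed less between genotypes. Col4a1 averaged 118 ± 24.3 FPKM in cK15 and 127 ± 36.2 FPKM in control hearts (SD, n = 18 each), a log2 fold change of -0.089 (SE 0.058; limma adjusted p = 0.394). Col4a2 averaged 53.8 ± 9.87 and 58.1 ± 16.5 FPKM in cK15 and control hearts, a log2 fold change of -0.082 (SE 0.049; limma adjusted p = 0.336). Neither passed in any alternative run, and a p above the threshold does not show that the levels are equal.

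Of the matricellular and adhesive proteins none passed. Fn1 had 3.13, 4.46 and 9.10 FPKM as lowest, median and highest in cK15 libraries, against 4.09, 4.91 and 10.1 FPKM in control libraries, with a log2 fold change of -0.20 (SE 0.085; limma adjusted p = 0.148). Postn averaged 29.0 ± 7.89 FPKM in cK15 and 34.9 ± 8.02 FPKM in control hearts, with a log2 fold change of -0.26 (SE 0.11; limma adjusted p = 0.116), which a fixed replicate block brought to -0.37 (adjusted p = 0.0138) and a random one left at -0.26 (adjusted p = 0.525). Without control replicate 4 at all times it was -0.16 (limma adjusted p = 0.541). Sparc, the most abundant cK15 transcript per length among the 10, averaged 144 ± 29.5 FPKM in cK15 and 148 ± 21.9 FPKM in control hearts, a log2 fold change of -0.053 (SE 0.076; limma adjusted p = 0.765).

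**Figure D1:**
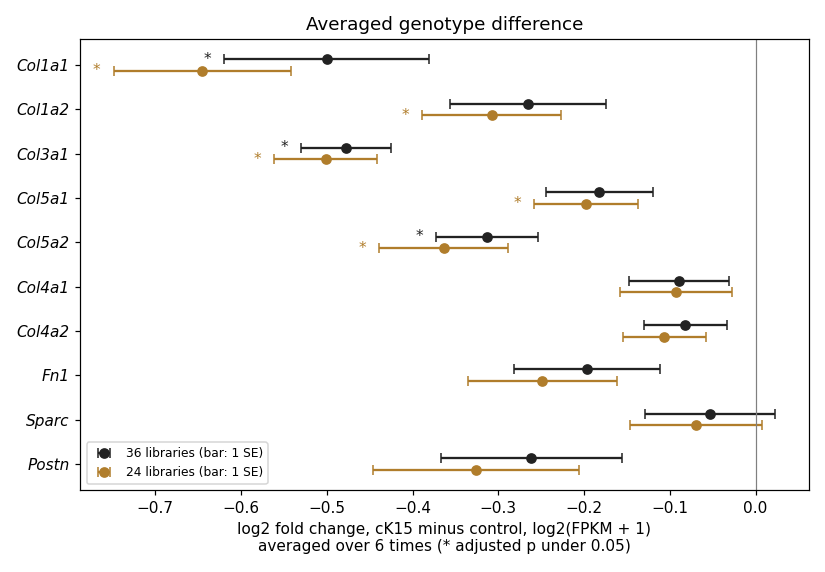
Averaged log2 fold change of the 10 matrix genes (x axis, cK15 minus control on log2(FPKM + 1); bars are 1 SE) in 36 libraries and in the 24 libraries outside the group with a low share of the 10 top genes. All points lie left of 0, and Col1a1, Col3a1 and Col5a2 carry an asterisk in both fits, from 36 and from 24 libraries.

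The count of members called depended on single libraries. It was 3 of 10 in all 36 libraries, 5 over the 24 libraries and 5 with a fixed replicate block, against 2 with a random one, where the call of Col1a1 was lost. Over all 10599 genes the same fits called 1191, 1175, 1172 and 346, in that order, and leaving out single libraries gave 1072 to 1198. Leaving out cK15 replicate 1 of 8 am gave 6, with Col1a2, Col5a1 and Fn1 added, and leaving out cK15 replicate 1 of 12 pm gave 5, with Col1a2 and Col5a1 added. Col3a1 and Col5a2 were called in every alternative run.

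At single times, 54 of the 60 differences (10 genes at 6 times) lay below 0, and 2 passed, both of Col3a1. The 60 are not independent, because the genes share the same libraries. The share of all genes below 0 at single times was not computed. Over all genes, 1.21%, 1.12%, 1.06%, 0.745%, 1.3% and 1.12% were called at the 6 times, in order from 12 am to 8 pm. At 4 pm Col3a1 had 91.2, 111 and 112 FPKM in the cK15 libraries, against 193, 181 and 216 FPKM in control libraries. The groups were far apart, with a log2 fold change of -0.91 (SE 0.13; limma adjusted p = 3.04e-05). At 8 pm it had 70.6, 77.1 and 94.3 FPKM in cK15, against 96.1, 126 and 134 FPKM in control. The groups stood apart by a narrow gap, at -0.55 on the log2 scale (SE 0.13; limma adjusted p = 0.0217). This second call was lost over the 24 libraries (adjusted p = 0.0863). It was also lost when cK15 replicate 1 or 3 or control replicate 3 or 4 of 8 pm was left out (adjusted p between 0.114 and 0.197).

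Col3a1 at the other times gave values of the same order. At 8 am it had 163, 125 and 158 FPKM in cK15 and 181, 217 and 205 FPKM in control (log2 fold change -0.44; limma adjusted p = 0.121). At 12 pm it had 144, 152 and 125 FPKM in cK15 and 188, 191 and 206 FPKM in control (-0.47; limma adjusted p = 0.101). Both pairs of groups stood apart without passing, and with a fixed replicate block both passed (adjusted p = 0.0473 at 8 am and 0.0386 at 12 pm). At 12 am the cK15 libraries had 76.0, 66.4 and 78.6 FPKM and the control libraries 91.4, 86.1 and 89.8 FPKM, also apart. At 4 am the groups overlapped, with 94.9, 95.9 and 112 FPKM in cK15 and 110, 132 and 111 FPKM in control libraries.

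Col5a2, the neighbour of Col3a1 on chromosome 1, stood apart at 4 of 6 times. At 4 pm it had 14.9, 20.1 and 16.8 FPKM in cK15, against 22.9, 22.7 and 31.5 FPKM in control (log2 fold change -0.54, SE 0.15; limma adjusted p = 0.0635, or 0.00784 with a fixed replicate block). At 8 am it had 22.4, 20.2 and 21.1 FPKM in cK15 and 22.4, 30.4 and 27.6 FPKM in control. The gap at 8 am was small, with 22.38 FPKM in the highest cK15 and 22.43 FPKM in the lowest control library. All cK15 libraries were under all control libraries for Col3a1 at 5 times, Col5a2 at 4, and Col1a1 (8 pm), Col5a1 (4 pm) and Fn1 (4 am) at 1 time each. Over all genes, 7.76%, 6.95%, 6.97%, 6.28%, 7.4% and 6.22% were so placed at the same 6 times. The reverse order was seen for Col4a2 at 4 am and Fn1 at 12 pm, where 4.21% and 4.18% of all genes showed it.

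**Figure D2:**
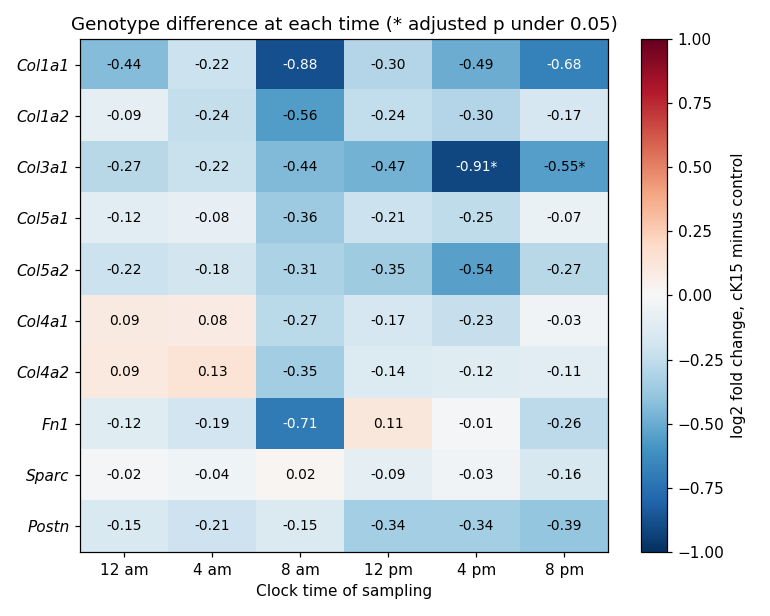
Log2 fold change (cK15 minus control, log2(FPKM + 1)) of each matrix gene (rows) at each clock time (columns), 3 libraries per group. Col3a1 at 4 pm (-0.91) and 8 pm (-0.55) carry an asterisk; Col4a1 and Col4a2 lie above 0 at 12 am and 4 am.

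At 8 am the cK15 libraries were spread widely for Fn1, Col1a1 and Col1a2. Fn1 had 9.10, 3.13 and 4.53 FPKM in cK15, against 8.22, 8.84 and 10.1 FPKM in control. Col1a1 had 19.4, 5.86 and 8.36 FPKM in cK15, against 17.3, 21.1 and 19.1 FPKM in control. Col1a2 had 61.6, 27.4 and 35.5 FPKM in cK15, against 56.3, 60.4 and 57.8 FPKM in control. The library given first, cK15 replicate 1, lay within or near the control range for these genes and the other two lay below it. It was the highest cK15 library of 8 am for all 10 members, by a median of 0.35 on the log2 scale. Other lists lay higher in it too, by medians of 0.37 (smooth muscle and pericyte markers), 0.28 (macrophage) and 0.23 (endothelial). Its fibroblast markers differed by 0.0014, activated fibroblast markers by -0.082 and heart muscle markers by -0.67. In control replicate 2 of 8 am heart muscle markers differed by -0.43 and the members by -0.21. Both are among the 12 libraries with a low share of the 10 top genes, and the part of that in these values was not tested.

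With all libraries, the 8 am differences were -0.71 for Fn1 (SE 0.21; limma adjusted p = 0.126), -0.88 for Col1a1 (SE 0.29; adjusted p = 0.242) and -0.56 for Col1a2 (SE 0.22; adjusted p = 0.469). Without cK15 replicate 1 of 8 am all of these passed: Fn1 at -1.07 (limma adjusted p = 0.000696), Col1a1 at -1.33 (adjusted p = 0.00697) and Col1a2 at -0.88 (adjusted p = 0.0375). Without cK15 replicate 3 of 8 am they were smaller, at -0.42 for Fn1 (limma adjusted p = 0.821), -0.54 for Col1a1 (adjusted p = 0.939) and -0.31 for Col1a2 (adjusted p = 1.00). Over the 24 libraries the 8 am differences of Fn1 (-1.13; limma adjusted p = 0.00907), Col1a1 (-1.40; adjusted p = 0.00750), Col1a2 (-0.90; adjusted p = 0.0306) and Col4a2 (-0.59; adjusted p = 0.0141) passed. The fit over 24 libraries has 2 per group, and leaving out 1 library leaves 2 in its group. The share of all genes called at 8 am was not computed for these fits, so the member calls have no background there.

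No member passed the test of a genotype difference that varies with time; over all genes 0.00943% (1 gene) did. At an unadjusted p under 0.05, 1.93% of all genes passed, and of the 10 genes only Col3a1 did (limma p of 0.0109 before and 1.00 after adjustment).

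Group means were compared across clock times within each genotype. The highest group mean was at 8 am for 9 of the 10 genes in cK15 hearts and 8 of 10 in control hearts, and at 12 pm for the others (Postn in both genotypes and Sparc in control). Without cK15 replicate 1 of 8 am, left out after its values were seen, 8 am was highest for 5 of the 10 genes in cK15 hearts, the maximum being at 4 pm for Col1a1 and Col1a2, at 12 am for Fn1 and at 12 pm for Sparc and Postn. The ratio of the highest to the lowest group mean was 2.36 for Col1a1 in cK15 (1.55 without that library) and 2.62 in control, and 2.02 for Col3a1 in cK15 and 2.26 in control. For Fn1 it was 1.36 in cK15 and 2.17 in control, where the 8 am mean was 9.07 ± 0.982 FPKM (SD, n = 3). Sparc had the narrowest control range, at 1.33 in cK15 and 1.36 in control.

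A 24 h rhythm, tested with cosine and sine terms within the 18 libraries of a genotype, passed for 3 of 10 genes in cK15 hearts (Col3a1, Col4a1 and Col4a2) and for 4 of 10 in control hearts (these and Col5a2). Over all genes, 1.08% passed in cK15 and 2.8% in control. Amplitudes are from the curve's mean to its peak on the log2 scale. Col3a1 had an amplitude of 0.52 in cK15 (SE 0.052; limma adjusted p = 1.99e-05) and 0.62 in control (SE 0.058; adjusted p = 3.43e-06), with fitted peaks at clock hour 10.2 in cK15 and 11.9 in control. Col4a1 had an amplitude of 0.34 in cK15 (limma adjusted p = 0.00318) and 0.47 in control (adjusted p = 0.000220), with peaks at hour 8.75 in cK15 and 9.99 in control.

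Col4a2 followed its head-to-head partner, with an amplitude of 0.30 in cK15 (limma adjusted p = 0.00154) and 0.43 in control (adjusted p = 0.00154). Col5a2 had an amplitude of 0.22 in cK15 (limma adjusted p = 0.109) and 0.28 in control (adjusted p = 0.0303). The last call was lost over the 24 libraries (adjusted p = 0.0828), where the cK15 call of Col4a1 was lost too (0.30; adjusted p = 0.0502) and Col5a1 passed in control (0.38; adjusted p = 0.0336). The Col5a2 control call was also lost when any of 5 control libraries was left out: replicates 2 or 4 of 12 am, replicates 3 or 4 of 8 am, or replicate 3 of 12 pm (adjusted p between 0.0515 and 0.0823). With a fixed replicate block Col5a2 passed in cK15 (adjusted p = 0.0489), and Col5a1 (adjusted p = 0.0429) and Postn (adjusted p = 0.0165) passed in control.

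The difference in rhythm between genotypes was not called for any of the 10 genes, nor for any gene of the table (0.0%). At an unadjusted p under 0.05, 2.75% of all genes passed, of the 10 only Col3a1 (limma p of 0.00455 before and 1.00 after adjustment). A rhythm called in control and not in cK15, as for Col5a2, is therefore not shown to differ between them (limma p of 0.214 before adjustment).

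**Figure D3:**
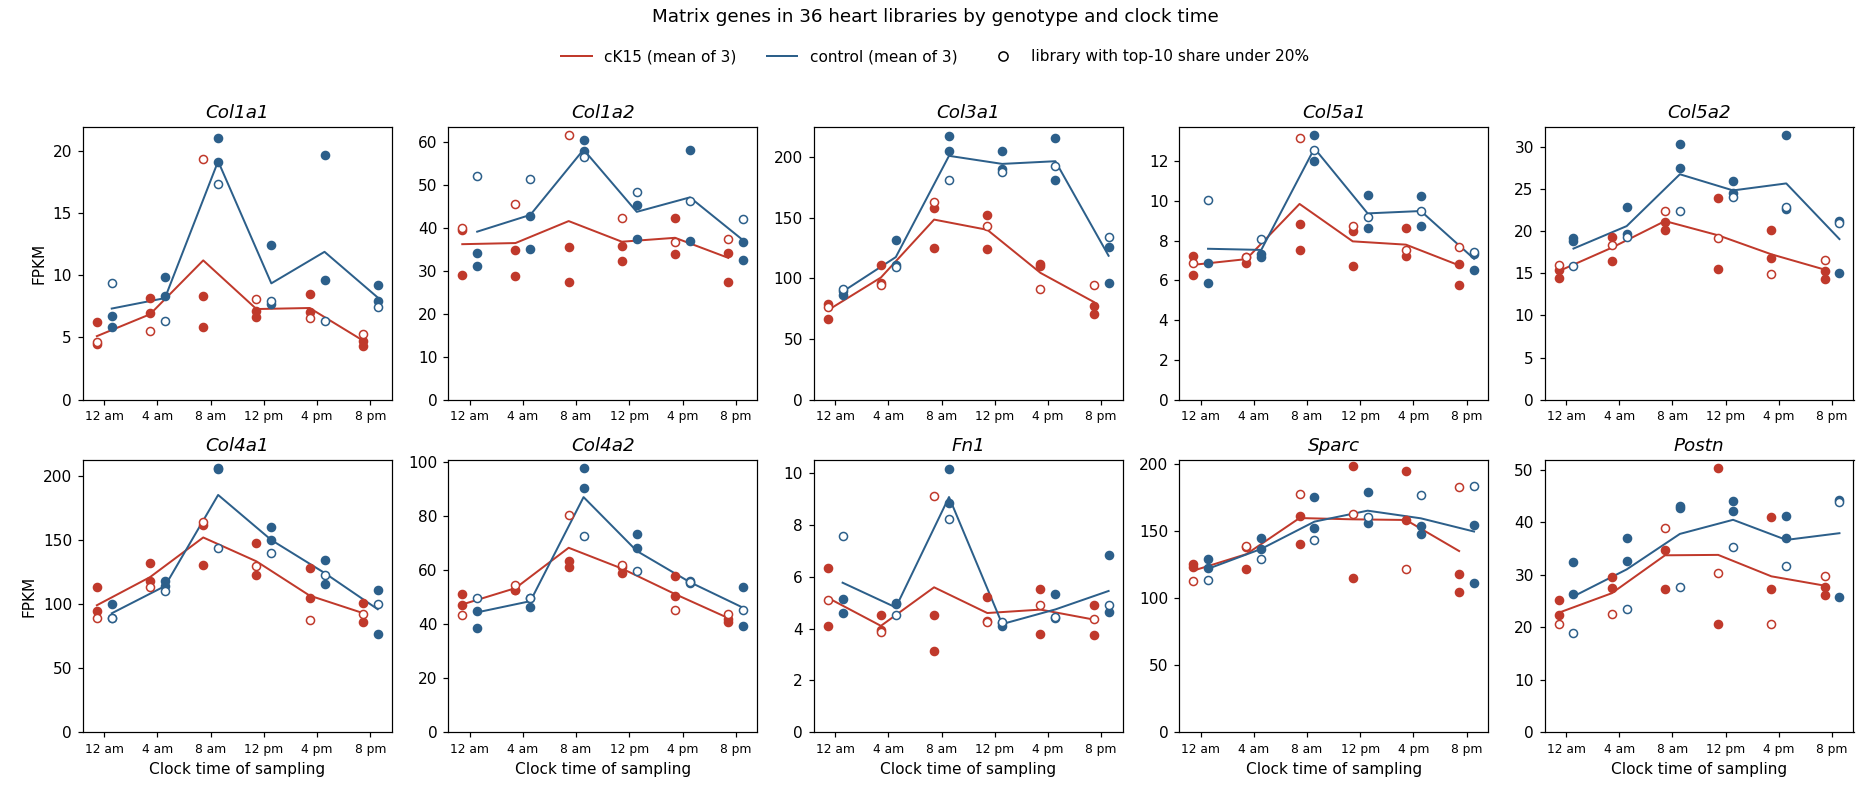
FPKM of the 10 matrix genes in every library (points; cK15 red and drawn left, control blue) by clock time, with lines through the means of 3 libraries. Open points are the 12 libraries whose top-10 genes take under 20% of the summed FPKM; the Col3a1 groups stand apart at 5 of 6 times, and a single open cK15 point lies high at 8 am for Col1a1, Col1a2, Col5a1 and Fn1.

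Ratios between chains of the same collagen, on the FPKM scale, compare levels per length. Col4a1 over Col4a2 was 2.18 ± 0.179 in cK15 and 2.19 ± 0.170 in control hearts (SD, n = 18 each). Col1a1 over Col1a2 was 0.189 ± 0.0503 in cK15 and 0.234 ± 0.0685 in control hearts, although the protein trimer holds more α1 than α2 chains. The ratio ranged between 0.116 and 0.314 over cK15 libraries and between 0.123 and 0.349 over control libraries, so that the genotypes overlap, and the lower Col1a1 value held in every library of both. Col5a1 over Col5a2 was 0.437 ± 0.0744 in cK15 and 0.402 ± 0.0834 in control hearts. These ratios were given no test.

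After the mean of each of the 12 groups was subtracted, the members varied together among libraries in sets. These correlations are across 36 libraries that share one scaling, and are given as a description. Col5a2, Postn and Sparc formed a close set, with Pearson r = 0.85 for Col5a2 and Postn (0.85 over the 24 libraries) and 0.73 for Sparc and Postn (0.94 over the 24). Col3a1 was nearest to Sparc, at 0.75. Col1a2 and Col5a1 had r = 0.79 (0.54 over the 24 libraries), Col1a1 and Fn1 0.71 (0.52), and the type IV pair 0.76 (0.81). The sets were not separate. Fn1 had 0.50 with Col4a1 (0.88 over the 24) and 0.65 with Col4a2 (0.67). Col4a1 had 0.60 with Col3a1 (0.58) and 0.29 with Col1a2 (0.76). Col1a1 and Col1a2, which share a trimer, had only 0.56 over 36 libraries and 0.89 over the 24. Col5a1 and Col5a2, also partners in a trimer, had -0.034 (-0.061 over the 24), and the lowest pair was Col5a1 and Postn at -0.18.

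**Figure D4:**
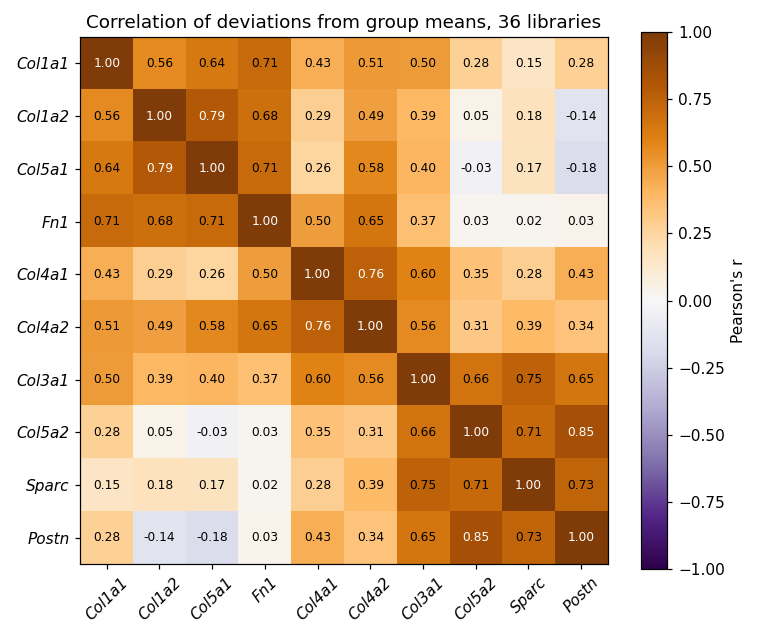
Pearson's r between the matrix genes across 36 libraries after subtraction of the 12 group means (rows and columns are genes, colour is r). Col1a1, Col1a2, Col5a1 and Fn1 form 1 block, and Col3a1, Col5a2, Sparc and Postn another. The blocks are not separate, because the type IV chains reach into both (Col4a2 and Fn1 0.65, Col4a1 and Col3a1 0.60). Values are near 0 between Fn1 and each of Col5a2, Sparc and Postn.

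Outside the members, the genes whose deviations were most like the mean of the 5 fibrillar chains were Ace (angiotensin-converting enzyme, r = 0.80 over 36 libraries and 0.88 over the 24), Fbn1 (fibrillin, 0.80 and 0.84), Cilp (0.79 and 0.51), Col15a1 (0.77 and 0.57) and Bgn (biglycan, 0.73 and 0.64). Tpcn1, Plxnd1, Trim25, Hspg2 (perlecan) and Poln followed, at 0.68 to 0.69. Among those most like the type IV pair were App (0.81 and 0.77), Ace (0.69), Zscan25 (0.69) and Col14a1 (0.68). Of these, Fbn1, Cilp and Col14a1 also fell in the averaged comparison; Cilp, of which the protein lies in the matrix, averaged 1.46 FPKM in cK15 and 2.31 FPKM in control hearts (log2 fold change -0.43, SE 0.094; limma adjusted p = 0.00216), and Ace averaged 16.2 FPKM in cK15 and 16.7 FPKM in control hearts (-0.040; adjusted p = 0.822).

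The other genes of matrix assembly were read from lists by role, against 7.18% lower and 4.06% higher over all genes. Most of these calls did not hold with the random block of genotype and replicate number. Under it 252 genes of the table were called lower and 94 higher, and each list's count under it stands beside the main one. Of 8 other fibrillar and fibril-associated collagens tested, 2 fell (0 with the random block), none rose, and all 8 lay below 0 (median log2 fold change -0.17). Col14a1, a fibril-associated collagen, averaged 5.67 ± 1.28 FPKM in cK15 and 7.60 ± 1.63 FPKM in control hearts (-0.36; limma adjusted p = 0.00878, or 0.146 with the random block). Col16a1 averaged 3.17 ± 0.583 FPKM in cK15 and 3.93 ± 0.837 FPKM in control hearts (-0.24; adjusted p = 0.0304), a call lost in 18 of 53 alternatives. Of 14 other basement membrane genes 2 fell (1 with the random block) and none rose (median -0.079). Lama5, a laminin chain, averaged 14.8 ± 4.08 FPKM in cK15 and 22.1 ± 5.84 FPKM in control hearts (-0.55; limma adjusted p = 0.000244) and kept its call in all 53 alternatives; Nid2 (nidogen, -0.23; adjusted p = 0.0319) lost it in 16.

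Of 22 genes for collagen folding, processing and cross-linking 3 fell (0 with the random block) and none rose (median -0.055). These were Adamts2, which cleaves the N-terminal propeptide of fibrillar procollagens (-0.30; limma adjusted p = 0.00256, or 0.0940 with the random block), Pcolce, which enhances C-propeptide removal (-0.16; adjusted p = 0.00606, or 0.185), and the lysyl oxidase family gene Loxl1 (-0.23; adjusted p = 0.0403, lost in 32 of 53 alternatives). Of 20 matricellular proteins, small proteoglycans and elastic fibre genes 6 fell and 1 rose (median -0.18), of which the random block kept only the call of Dcn. Dcn (decorin), which coats collagen fibrils, averaged 474 ± 37.8 FPKM in cK15 and 549 ± 47.4 FPKM in control hearts (-0.21; limma adjusted p = 0.000226). Thbs2 (thrombospondin 2) changed by -0.30 (adjusted p = 0.000719, or 0.0550 with the random block), Fbn1 by -0.28 (adjusted p = 0.00256, or 0.0898) and the fibril-binding Lum (lumican) by -0.31 (adjusted p = 0.00320, or 0.143).

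Matrix turnover and adhesion genes moved in both directions. Of 18 proteases and inhibitors 5 fell and 1 rose (median -0.090), and none was called with the random block, where the adjusted p was 0.163 for Timp1, 0.199 for Serpine2 and 0.196 for Fap. Timp1, an inhibitor of matrix metalloproteinases, averaged 3.57 ± 1.83 FPKM in cK15 and 6.41 ± 3.23 FPKM in control hearts (-0.66; limma adjusted p = 0.00493), while Timp4, another such inhibitor, averaged 35.1 ± 13.8 FPKM in cK15 and 28.3 ± 13.9 FPKM in control hearts (0.37; adjusted p = 0.0499, lost in 36 of 53 alternatives). The serine protease inhibitor Serpine2 (-0.24; limma adjusted p = 0.00483), the fibroblast protease Fap (-0.26; adjusted p = 0.0119) and the collagen-degrading cathepsin Ctsk (-0.28; adjusted p = 0.0286, lost in 11 alternatives) fell. Of 18 matrix receptors 2 fell and 2 rose (median -0.0017), of which the random block kept only the call of Itga5 and gave adjusted p = 0.0940 for Ddr1 and 0.323 for Sdc4. Itga5, the fibronectin receptor's α chain, averaged 18.3 ± 2.48 FPKM in cK15 and 14.8 ± 2.12 FPKM in control hearts (0.29; limma adjusted p = 0.000750), and the heparan sulphate proteoglycan Sdc4 rose by 0.38 (adjusted p = 0.0213). The collagen receptor Ddr1 (-0.42; adjusted p = 0.00134) and the laminin receptor chain Itga7 (-0.20; adjusted p = 0.0299, lost in 14 alternatives) fell.

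Daily rhythm in the lists also had a morning peak for most genes named. Col5a3, the third type V chain gene, had an amplitude of 0.98 in cK15 (peak at hour 7.13; limma adjusted p = 2.12e-08) and 0.96 in control (peak at hour 8.89; adjusted p = 4.25e-08), the largest in its list, beside a genotype difference of only -0.055 (adjusted p = 0.678). Fbn1 had 0.67 in cK15 (limma adjusted p = 9.99e-06) and 0.74 in control (adjusted p = 2.24e-07), Eln (elastin) 0.59 (adjusted p = 0.0191) and 0.68 (adjusted p = 0.00219), and Col15a1 0.42 (adjusted p = 0.00964) and 0.50 (adjusted p = 0.000293), each in cK15 and control. Col6a3 passed in cK15 (0.38; limma adjusted p = 0.0485) and missed in control (0.34; adjusted p = 0.0597). Timp1 (0.68; limma adjusted p = 0.0299), Loxl1 (0.41; adjusted p = 0.0132), Itga6 (0.25; adjusted p = 0.00710) and Itga11 (0.36; adjusted p = 0.0489) passed in control, with peaks between hours 8.47 and 11.4, and missed in cK15. Timp4 (0.74; limma adjusted p = 0.0191) and the lysyl hydroxylase Plod2 (0.27; adjusted p = 0.0482) passed in control with evening peaks, at hours 22.8 and 18.1.

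Markers of the cell types in the apex moved beside the matrix genes. Among fibroblast markers Dpt (-0.36; limma adjusted p = 2.60e-06), Dcn, Gsn (-0.19; adjusted p = 0.00198) and Lum were the 4 of smallest adjusted p; Dcn and Lum are in the proteoglycan list too, and Fap, below, in that of proteases. With the random block Dpt, Dcn and Gsn kept their calls and Lum did not. Of 4 activated fibroblast markers tested 2 fell (0 with the random block), Acta2 (-0.35; limma adjusted p = 0.0450, lost in 32 of 53 alternatives) and Fap, and Cthrc1 was listed at 0 in 29 of 36 libraries. Macrophage markers fell for 7 of 8 (median -0.25), for 0 with the random block and for 4 with median-ratio or quantile scaling, and their sum averaged 192 ± 26.2 FPKM in cK15 and 232 ± 27.9 FPKM in control hearts (SD, n = 18 each). Emr1 changed by -0.29 (limma adjusted p = 0.000729), Lyz2 by -0.31 (adjusted p = 0.00290), Mrc1 by -0.22 (adjusted p = 0.0106) and C1qb by -0.30 (adjusted p = 0.0206). Valve and mesothelial markers fell for 2 of 7 (1 with the random block), among them Upk1b (-0.39; limma adjusted p = 0.0104, or 0.275 with the random block). None of 8 endothelial markers (median -0.10), 7 smooth muscle and pericyte markers (median -0.065) or 3 blood markers passed. At an unadjusted p under 0.05 limma gave 5, 0 and 1 of them, against 2463 of all 10599 genes tested. Heart muscle markers rose for 2 of 8 (median 0.097; 0 with the random block), Actc1 (0.15; limma adjusted p = 0.0177) and Ckm (0.22; adjusted p = 0.0499, lost in 36 of 53 alternatives).

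**Figure D5:**
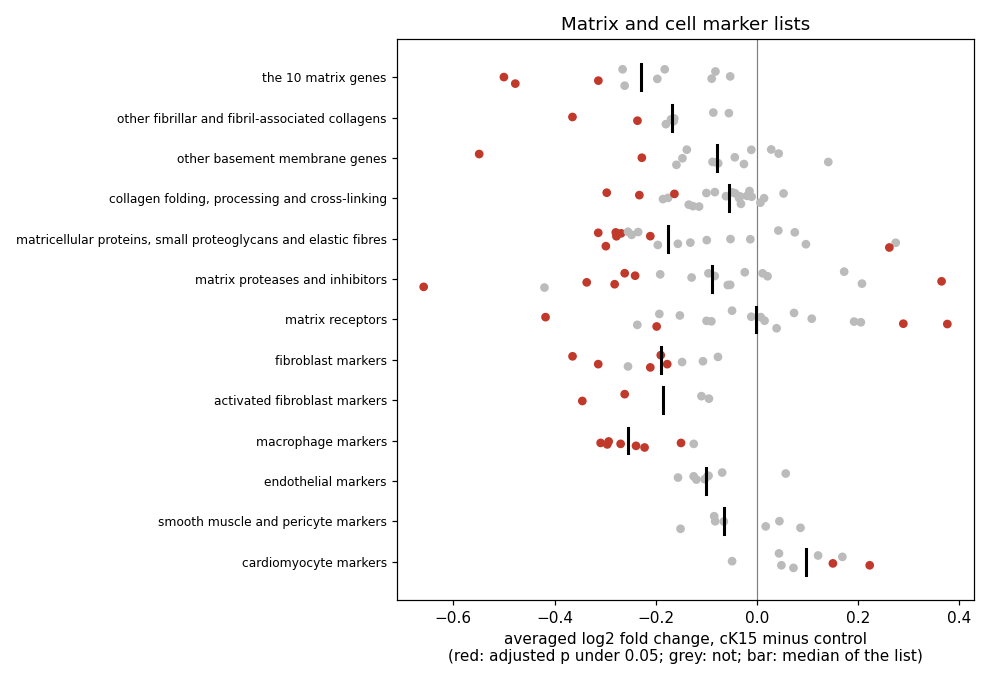
Averaged log2 fold change (x axis, cK15 minus control) of each tested gene in the matrix and cell marker lists (rows); red points passed at an adjusted p under 0.05 and black bars are list medians. The medians of the 10 matrix genes (-0.23), fibroblast markers (-0.19) and macrophage markers (-0.25) lie left of 0, and that of the heart muscle markers (0.097) lies right of it.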

How the data were processed

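RNA was sequenced from the heart apex of cK15 and control mice, after ribosomal RNA depletion and with a stranded kit, per the labels' protocols. The authors deposited FPKM in a table per genotype; the submitters' processing notes name GSNAP, HTSeq and mm10, without versions or roles, and nothing names the program behind the FPKM. These values are scaled to each library's total, so a few abundant genes can move all others. Whole reads could not be recovered.

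Of 23352 genes, the 10599 with a mean FPKM of at least 1 were tested with limma 3.58.1 (R 4.3.3) on log2(FPKM + 1), which understates changes of low genes. The fit had 12 group means and trended, robust variance moderation; rhythm used 24 h cosine and sine terms. P-values were adjusted by Benjamini-Hochberg over all genes, with a threshold of 0.05. Members and lists were chosen with earlier results of these data known. Genes named from the lists are up to 4 called per list by adjusted p and, from matrix lists, up to 2 rhythmic by amplitude; the 10 and 5 genes most like the fibrillar and type IV chains were also named. Cilp and Ace are given values because they head that likeness. Some genes that this rule names are not reported here.

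Same-numbered cK15 and control libraries (numbers 3 and 4, from the titles) deviated together from their group means in all 12 pairs. The correlation across genes was 0.157 to 0.509. This does not show that the numbers pair them. Unlike numbers were not compared, and each group holds a library with a low top-10 share, which can move deviations alike in both genotypes. Block fits are given as alternatives. The fixed block uses the number across genotypes, and the random block uses genotype and number together. The alternatives were another pseudocount, no filter, median-ratio and quantile scaling, replicates left out, a term for the 12 libraries with a low top-10 share or their removal, blocks, plain variance moderation and permutation within times. Others, chosen after seeing the data, left out 8 am libraries. The fits were tested on simulated data.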

Additional observations from a re-analysis of the deposited data

Results flagged for a closer look

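Fn1 was noted because its genotype order turned between times. At 4 am all 3 cK15 libraries were under the control libraries (3.85, 4.535 and 3.93 FPKM in cK15, against 4.538, 4.97 and 4.93 FPKM in control; log2 fold change -0.19). At 12 pm all 3 were above them (4.26, 4.29 and 5.23 FPKM in cK15, against 4.24, 4.09 and 4.19 FPKM in control; log2 fold change 0.11). Neither difference passed (limma adjusted p = 0.997 at 4 am and 1.00 at 12 pm), and the gaps between the nearest libraries were small. The test of a genotype difference that varies with time gave an unadjusted limma p of 0.133 and an adjusted p of 1.00 for Fn1.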

How the results depend on the processing

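All 10 averaged differences kept their direction in every alternative, and none of the results followed turned sign; of 37 small differences at single times followed by sign only, 16 turned in at least 1 alternative, none of them called, with sizes up to 0.159. The 3 members called became 5 without the 12 low top-10 libraries, 5 with a term for them, 5 with a fixed replicate block, 6 without cK15 replicate 1 at all times and 6 without both such libraries of 8 am (an alternative chosen after seeing the data). A random replicate block gave 2, and leaving out single libraries gave 3 to 6. Over all genes, 1268 were called without cK15 replicate 1 at all times and 1127 without both such libraries of 8 am. The 2 calls at single times became 5, 4 and 5 with the same removal, term and fixed block, 5 without both 8 am libraries, and 1 to 5 when single libraries were left out; the causes were not tested. For calls at single times, the share of all genes was not computed in these alternatives, so the member counts have no background. Over all genes the 1191 averaged calls (430 higher, 761 lower) became 2168 (904, 1264) with the term, 346 (94, 252) with the random block and 757 without control replicate 3 (234 higher). Scaling moved the split to 606 higher and 637 lower (median ratio) and 635 and 605 (quantile), with shifts of the median gene to 0.0088 and 0.019. The random block changed no call of the 10 genes beyond those given, but the rhythm tests within a genotype were not run with it. Depth is unknown, so no counting error could be given, and 2 or 3 libraries per group limit the tests at single times.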
